A study of Mus musculus with 6 samples.

Results

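The genes described here load and display peptides on MHC class II, and the 10 members were taken by symbol: *H2-Aa*, *H2-Ab1*, *H2-Eb1*, *H2-DMa*, *H2-DMb1*, *H2-Oa*, *H2-Ob*, *Cd74*, *Ciita* and *Ctss*. All 10 had a row of their own in the gene count matrix, out of 61880 rows. They belonged to 10 of the 53912 loci of the matrix, which carry a number from the authors' transcript assembly or an Ensembl identifier. These 10 loci held 16 rows. The matrix held 6 samples of mammary epithelial cells isolated from the inguinal glands of female FVB/NJ mice aged 6 to 8 weeks, 3 from transgenic *fat-1* mice and 3 from wildtype (WT) mice. The *fat-1* transgene comes from the roundworm *Caenorhabditis elegans* and encodes an *n*-3 desaturase active throughout the body, so that *fat-1* mice make *n*-3 PUFA from *n*-6 PUFA, and WT mice do not. Both genotypes received for life the same modified AIN93G diet with 10% safflower oil by weight (22% of energy). Each sample was a pool of glands from several mice, with the lymph nodes removed before digestion, and the stage of the oestrous cycle was not determined. The comparison addressed whether lifelong *n*-3 PUFA exposure went with a different level of these genes.

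MHC class II molecules are pairs of an alpha and a beta chain that carry peptides from endosomes to the cell surface, where CD4+ T cells read them. The invariant chain (*Cd74*) blocks the groove of new pairs, cathepsin S (*Ctss*) trims it to a short fragment, and H2-M (*H2-DMa* with a DMb chain) exchanges that fragment for antigen peptide, while H2-O (*H2-Oa* with *H2-Ob*) restrains H2-M. The transactivator *Ciita* switches on these genes by docking on the RFX, CREB and NF-Y factors that sit on their promoters. B cells, dendritic cells and many macrophages carry class II at rest, H2-O is best known from B cells, and mammary epithelium can be induced to carry it by interferon gamma.

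Promoter sequences of members are shown as background. Whether the letters in them relate to the levels of these genes in the 6 samples was not tested. RefSeq promoter windows of GRCm38.p6, 250 bases before to 50 bases after each start, were found for 7 of the 10 members, and 5 of the 7 held the letters GNAAC, a core of the X box, followed by GATTGG, the core of the Y box to which NF-Y binds, starting 15 to 45 bases later on the same strand. The letters were chosen after these windows had been read, and both strands were searched. Of all 32851 promoter windows, 1.69% held this pair and 16.1% held GATTGG on either strand. The 150 bases before the start of 3 members are printed 5′ to 3′ on the strand of the gene, with both cores in capitals:
*H2-Aa*, minus strand, chr17:34287824-34287973: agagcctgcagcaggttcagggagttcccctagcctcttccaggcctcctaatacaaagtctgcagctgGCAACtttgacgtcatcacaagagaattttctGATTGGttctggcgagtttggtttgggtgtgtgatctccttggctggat
*H2-Eb1*, plus strand, chr17:34305717-34305866: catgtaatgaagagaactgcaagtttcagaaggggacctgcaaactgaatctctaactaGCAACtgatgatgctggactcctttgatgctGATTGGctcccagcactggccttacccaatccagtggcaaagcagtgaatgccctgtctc
*H2-Ob*, plus strand, chr17:34238755-34238904: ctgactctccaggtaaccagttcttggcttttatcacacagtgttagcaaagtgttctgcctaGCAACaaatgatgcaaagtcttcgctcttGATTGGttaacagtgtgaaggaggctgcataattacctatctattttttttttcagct
The Y core began 49 bases before the start in *H2-Aa*, 60 in *H2-Eb1* and 58 in *H2-Ob*, and the X core lay 32, 31 and 29 bases upstream of it. *H2-Oa* and *H2-DMb1* also held the pair, with a spacing of 32 bases in each. The window of *Ctss* and both windows of *H2-DMa* held no such pair. A match of letters is a description and not a measured binding site.

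The counts summed to between 204539059 and 232148824 per sample. Levels are given in CPM, which are counts scaled to the TMM-normalized total of each sample, and as the sum of all rows of a locus unless a row is named, because part of a gene's reads can stand in a row that lacks its symbol. The luminal, basal and lymphoid markers differed widely between samples of the same genotype. *Krt8*, a keratin of luminal cells, ranged from 210 to 899 CPM in *fat-1* and from 221 to 645 CPM in WT, and the locus of *Ptprc*, which encodes the leukocyte antigen CD45, from 166 to 407 CPM and from 157 to 398 CPM, so the label of mammary epithelial cells covers isolates that also held leukocyte RNA. In bulk RNA, fewer cells of a type and less RNA per cell cannot be told apart.

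None of the 10 members was called different between the genotypes, and the main variation lay between samples of the same genotype. Each member had its highest *fat-1* level in sample 2, followed by sample 3 and then sample 1, and its highest WT level in sample 3. The highest of the 6 samples exceeded the lowest by 2.28-fold (*Cd74*) to 3.81-fold (*H2-Oa*). All 10 members reached a spread of 2-fold or more, against 23.4% of the 14659 loci with a mean of at least 1 CPM, for which the median spread was 1.42-fold. Within the *fat-1* samples alone the spread of the members was 2.28-fold to 3.22-fold, and within the WT samples 1.84-fold to 3.21-fold.

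**Figure D1:**
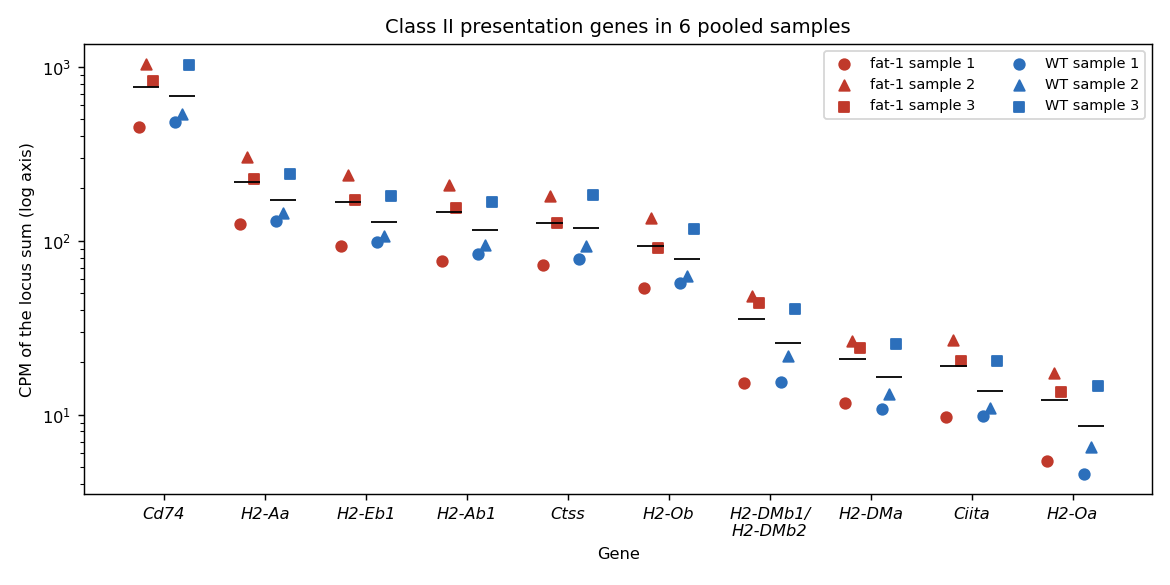
CPM of each locus sum (log axis) for the 10 members in 3 *fat-1* (red) and 3 WT (blue) samples, with the marker shape giving the sample number and a black line the mean of the genotype. In all 10 members the genotypes overlap, and *fat-1* sample 2 and WT sample 3 sit highest within their genotype.

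*H2-Aa* and *H2-Ab1* encode the alpha and beta chains of the I-A molecule and lie next to each other on chromosome 17 (34282744 to 34287823, minus strand, and 34257689 to 34269419, plus strand, GRCm38). *H2-Aa* had 125, 305 and 226 CPM in *fat-1* pools 1 to 3 and 129, 144 and 242 CPM in WT pools 1 to 3. The *fat-1* values therefore lay on both sides of the WT values. *H2-Ab1* had 76.6, 210 and 154 CPM in *fat-1* and 84.1, 94.5 and 167 CPM in WT, in the same order of samples as *H2-Aa*. The mean of *H2-Aa* was 218 ± 90.1 CPM (SD, *n* = 3) in *fat-1* and 172 ± 61.5 CPM in WT, and that of *H2-Ab1* was 147 ± 67.0 CPM and 115 ± 45.1 CPM. By edgeR's quasi-likelihood test the log2 fold change, *fat-1* relative to WT, was 0.35 for *H2-Aa* (standard error 0.37; 95% interval −0.56 to 1.25) and 0.35 for *H2-Ab1* (standard error 0.42; −0.66 to 1.36), each with an adjusted *p* of 1.00.

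*H2-Eb1*, the beta chain of the I-E molecule (chromosome 17, 34305867 to 34316674), had 93.5, 238 and 170 CPM in the *fat-1* pools and 98.1, 106 and 180 CPM in the WT pools. WT sample 3 lay between *fat-1* samples 2 and 3, and the other WT samples lay close to *fat-1* sample 1. Its log2 fold change was 0.39 (standard error 0.38; 95% interval −0.54 to 1.31). The alpha chain that would complete I-E, listed as *H2-Ea* and annotated in GENCODE as the polymorphic pseudogene *H2-Ea-ps*, had 2, 14 and 3 counts in the *fat-1* pools and 8, 3 and 5 in the WT pools, which was too few to be tested. As background, FVB mice carry the q haplotype of this region, in which the *Ea* gene is defective and the I-E molecule is not displayed. The reads of these mice were mapped to the GRCm38 reference, which is a C57BL/6J genome of the b haplotype, and the effect of the sequence differences between the haplotypes on the class II counts was not tested.

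*Cd74*, on chromosome 18, was the most abundant member. It had 452, 1030 and 823 CPM in the *fat-1* pools and 483, 534 and 1025 CPM in the WT pools. WT sample 3 and *fat-1* sample 2 were nearly level. The means were 769 ± 293 CPM (SD, *n* = 3) and 681 ± 299 CPM, and the log2 fold change was 0.18 (standard error 0.39; 95% interval −0.77 to 1.12). Its locus also held a microRNA row, *Mir5107*, but the *Cd74* row made up 99.8% of the counts in every sample. *Ctss*, the protease that trims the invariant chain (chromosome 3, 95526786 to 95556403), had 72.6, 180 and 126 CPM in *fat-1* and 78.9, 92.7 and 182 CPM in WT, and it was the only member with its highest value in WT. The log2 fold change of *Ctss* was the smallest of the 10, at 0.10 (standard error 0.43; 95% interval −0.93 to 1.13).

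*Ciita* (chromosome 16, 10480059 to 10528418) had 9.70, 26.7 and 20.3 CPM in the *fat-1* pools and 9.85, 11.0 and 20.4 CPM in the WT pools. The lowest samples of the genotypes were nearly level, as were *fat-1* sample 3 and WT sample 3. Its mean was 18.9 ± 8.60 CPM (SD, *n* = 3) in *fat-1* and 13.7 ± 5.78 CPM in WT. Its log2 fold change was 0.46 (standard error 0.43; 95% interval −0.59 to 1.51), and its unadjusted *p* of 0.327 in edgeR's quasi-likelihood test was the smallest of the 10 members.

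H2-M and its inhibitor H2-O were less abundant than the classical chains. *H2-DMa* (chromosome 17, 34119541 to 34139101) had 11.6, 26.5 and 24.2 CPM in *fat-1* and 10.8, 13.1 and 25.3 CPM in WT. *H2-DMb1* (34153072 to 34160230) shared its locus with the near copy *H2-DMb2* (34143307 to 34151555), and the sum of the locus was 15.3, 47.9 and 43.8 CPM in *fat-1* and 15.3, 21.6 and 40.6 CPM in WT. The sum could be split neither by the counts nor by the assembly. In a pair of GENCODE transcripts of *H2-DMb1* and *H2-DMb2*, which need not be the best match, 89.0% of 1214 aligned bases were identical. Of the 100-base windows of the longest *H2-DMb1* transcript, 13.7% occurred unchanged in *H2-DMb2*. The row named *H2-DMb1* held only 0.713% to 2.27% of the counts of the locus, and the row without a symbol held most of the rest. For this reason the sum is read as both DMb genes together and not as *H2-DMb1*. The row named *H2-DMb2* had 1.23, 3.83 and 6.69 CPM in *fat-1* and 2.34, 4.76 and 12.8 CPM in WT. Its log2 fold change was −0.76 (standard error 0.81; 95% interval −2.74 to 1.23), opposite in sign to that of the locus sum. The log2 fold change was 0.34 (standard error 0.43) for *H2-DMa* and 0.46 (standard error 0.52) for the DMb locus, with 95% intervals of −0.69 to 1.37 and −0.79 to 1.71.

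*H2-Oa* (chromosome 17, 34092340 to 34095234) had 5.41, 17.4 and 13.5 CPM in the *fat-1* pools and 4.57, 6.52 and 14.7 CPM in the WT pools. It had the widest spread of the members, and its log2 fold change of 0.50 was the largest of the 10 (standard error 0.56; 95% interval −0.86 to 1.86). *H2-Ob* (34238903 to 34254414) had 53.3, 135 and 90.3 CPM in *fat-1* and 56.8, 62.6 and 117 CPM in WT as a locus sum, and its log2 fold change was 0.24 (standard error 0.41; 95% interval −0.75 to 1.23). The row that carries the symbol held 13.4% to 27.8% of this sum and had 7.91, 31.1 and 12.1 CPM in *fat-1* and 9.13, 9.68 and 32.4 CPM in WT. The row named *H2-Ob* was thus high in *fat-1* sample 2 and WT sample 3 and low in the other 4 samples. The file gives no coordinates for the row without a symbol, so whether its reads came from *H2-Ob* or from transcripts that run on towards *H2-Ab1*, which begins downstream, was not tested. In *H2-DMa* the row with the symbol held 48.7% to 88.1% of the locus.

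**Figure D2:**
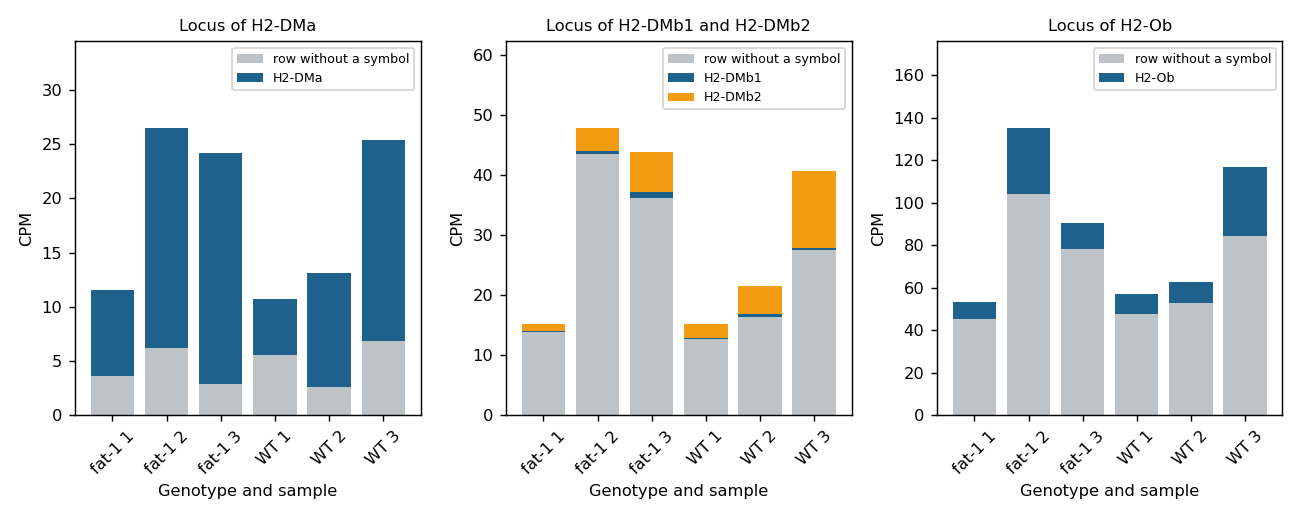
CPM of each row of the loci of *H2-DMa*, *H2-DMb1* with *H2-DMb2*, and *H2-Ob*, stacked, in the 6 samples (bars start at 0). Grey marks rows without a gene symbol, which hold most of the DMb and *H2-Ob* loci, blue the member's own row, and orange *H2-DMb2*.

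Per length, the order of the levels was led by *Cd74*, with a mean over the 6 samples of 432 CPM per kb of annotated exon. *Ctss* followed with 89.9, *H2-Eb1* with 76.0, *H2-Aa* with 51.4 and *H2-Ab1* with 51.0 CPM per kb. The values of these 4 genes overlapped over the samples (53.5 to 134 CPM per kb for *Ctss* and 29.8 to 81.8 for *H2-Ab1*), whereas the lowest *Cd74* value, 269 CPM per kb, lay above all of them. *H2-Ob* had 15.9, the DMb locus 8.98 over the exons of both its genes, *H2-Oa* 7.36, *H2-DMa* 5.39 and *Ciita* 1.71 CPM per kb. The exon lengths come from the annotation and not from the assembled transcripts, so these levels are approximate, and that of *H2-Ob* includes the row without a symbol.

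Across the 10 locus sums, 0 passed an adjusted *p* of 0.05 and 0 had an unadjusted *p* at or under 0.05 in edgeR's quasi-likelihood test. Over all 24061 loci tested, the shares were 0.0% and 1.14%. DESeq2 and edgeR's exact test also gave 0 members on each count. All 10 log2 fold changes were above 0 (0.10 to 0.50, median 0.35), as were 50.6% of all loci, for which the median was 0.0018. The members share the same samples and move together, so their common sign is not 10 separate results. Without *fat-1* sample 2, the values of *Ctss*, *Cd74* and *H2-Ob* turned negative (−0.25, −0.094 and −0.13), and *H2-Ab1* went to 0.0027. Without WT sample 1, *Ctss* and *Cd74* turned negative (−0.12 and −0.018), and without WT sample 2 so did *Ctss* (−0.048). Without WT sample 3 the 10 values were higher, from 0.57 to 1.14, and without *fat-1* sample 1 they were 0.38 to 0.86, with smallest unadjusted *p*-values of 0.0769 and 0.0691 in edgeR's quasi-likelihood test. The values of the genotypes overlapped in all 10 members. They did not overlap in 4.15% of all loci. Two-sided exact permutation *p*-values of log2(CPM + 1) were 0.5 to 1, where 3 against 3 samples cannot give less than 0.1. In the rows with the symbol, 0 of 10 passed on either count (0.0% and 2.21% of 30683 rows), with log2 fold changes from 0.00051 (*H2-Ob*) to 0.78 (*H2-DMb1*).

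**Figure D3:**
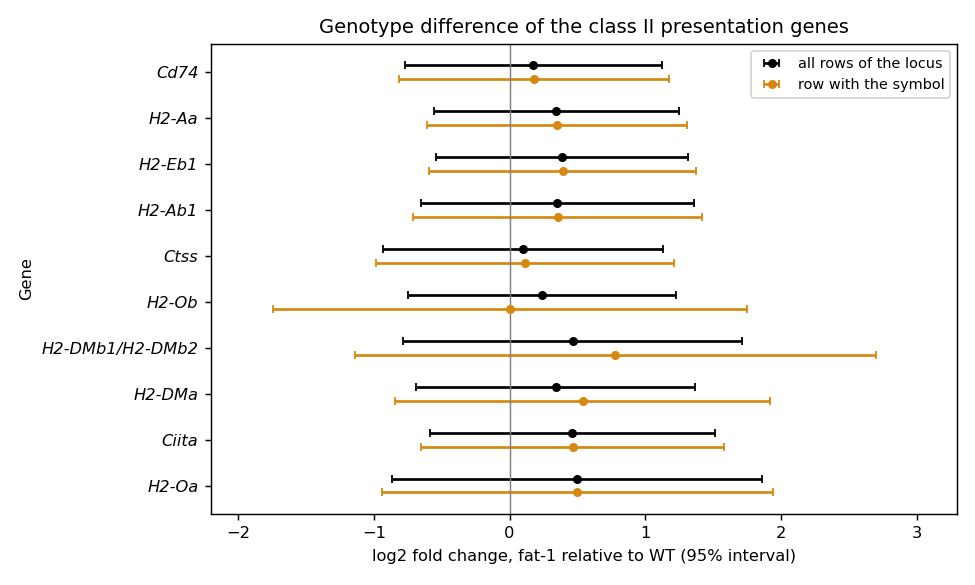
Log2 fold change of *fat-1* relative to WT for the 10 members, with 95% intervals from edgeR's quasi-likelihood fit, for the sum of all rows of the locus (black) and for the row with the symbol (orange; for the DMb locus, the *H2-DMb1* row). Every interval includes 0, and the widest, −1.14 to 2.70, belongs to the *H2-DMb1* row.

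The chains of I-A kept a nearly fixed ratio within a sample. The ratio of *H2-Aa* to *H2-Ab1* in CPM was 1.63, 1.45 and 1.46 in the *fat-1* pools and 1.54, 1.52 and 1.45 in the WT pools, a spread of 1.12-fold over the 6 samples. The ratio of the invariant chain to the beta chain, *Cd74* to *H2-Ab1*, was 5.90, 4.90 and 5.33 in *fat-1* and 5.73, 5.64 and 6.13 in WT. Only *fat-1* sample 1 reached the range of the WT samples. *H2-Oa* to *H2-DMa* was 0.466, 0.657 and 0.559 in *fat-1* and 0.424, 0.498 and 0.580 in WT, lowest in sample 1 of each genotype. The difference of the mean log2 ratio, *fat-1* minus WT, was 0.0081, −0.12 and 0.16 for these ratios, with two-sided exact permutation *p*-values of 0.9, 0.3 and 0.5 (adjusted over 5 ratios, 0.9, 0.75 and 0.833). *H2-Ob* to the *H2-DMb1* row varied by 5.39-fold over the samples, more than the locus sum of any member. The *H2-DMb1* row itself varied by 9.13-fold. The ratio gave a difference of −0.19 with a standard deviation of 1.22 in *fat-1* and 0.77 in WT (*n* = 3 each) and an exact permutation *p* of 0.7 (adjusted 0.875). With the whole DMb locus in place of the *H2-DMb1* row, *H2-Ob* was 2.06-fold to 3.71-fold the level in CPM.

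CD45, the product of *Ptprc*, is carried by nearly all leukocytes. *H2-Ab1* relative to the *Ptprc* row was 0.966, 0.796 and 0.767 in the *fat-1* pools and 0.838, 0.651 and 0.655 in the WT pools. The genotypes overlapped, and the difference of the mean log2 ratio was 0.24 (exact permutation *p* = 0.3, adjusted 0.75). The row held 47.8% to 73.4% of its locus, which also holds *A130071D04Rik*. Against the sum of the locus, a comparison added after the data had been seen, the ratio was 0.461, 0.516 and 0.563 in *fat-1* and 0.537, 0.471 and 0.420 in WT. The order of the *fat-1* samples was then the opposite, and the difference was 0.11 (exact permutation *p* = 0.5). *Ptprc* itself had 166, 407 and 274 CPM in *fat-1* and 157, 201 and 398 CPM in WT as a locus sum. The order of the *fat-1* samples was that of the class II genes, and in both *fat-1* sample 2 and WT sample 3 the level stood above the other samples of the genotype.

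The B cell, dendritic cell and T cell marker sums had the sample order of the class II genes within each genotype, and the macrophage sum did not. Sums were taken over genes whose locus held no other named gene. The 7 B cell genes so counted summed to 303, 782 and 615 CPM in the *fat-1* pools and 354, 386 and 793 CPM in the WT pools. The 10 dendritic cell genes summed to 187, 374 and 269 CPM and 191, 219 and 401 CPM, and the 10 T cell genes to 130, 254 and 160 CPM and 111, 139 and 252 CPM. Every one of these genes was higher in *fat-1* sample 2 than in sample 1 and in WT sample 3 than in WT sample 1. Most of the dendritic cell sum was *Ccr7*, a homing receptor that T and B cells also carry (111 to 247 CPM in *fat-1* and 118 to 272 CPM in WT), while *Clec9a* and *Xcr1*, which mark cross-presenting dendritic cells, had at most 0.708 and 1.58 CPM and were named after their values had been seen. The 9 macrophage genes summed to 27.6, 43.7 and 44.6 CPM in *fat-1* and 34.3, 49.2 and 46.3 CPM in WT, highest in *fat-1* sample 3 and WT sample 2, and 8 of them were higher in *fat-1* sample 2 than in sample 1, as were 8 in WT sample 3 against WT sample 1. *Mertk* made up the largest part of the macrophage sum, with 13.5, 12.9 and 13.1 CPM in *fat-1* and 15.7, 20.2 and 13.8 CPM in WT. *C1qc*, *Mrc1* and *Cd163* had the class II order in each genotype, and *Adgre1*, *Csf1r*, *C1qa*, *C1qb*, *Fcgr1* and *Mertk* did not. Apart from *Mertk*, these macrophage genes were named after their values had been seen. No gene of these lists was at 0 in any sample.

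Epithelial markers went the other way. The 10 luminal genes summed to 4587, 1065 and 1848 CPM in the *fat-1* pools and 3487, 2033 and 1115 CPM in the WT pools, and the 9 basal genes to 506, 144 and 275 CPM and 425, 230 and 134 CPM. All 10 luminal and all 9 basal genes were lower in *fat-1* sample 2 than in sample 1 and in WT sample 3 than in WT sample 1. The ratio of *H2-Ab1* to the B cell sum was 0.210 to 0.269 over the 6 samples, a spread of 1.28-fold. Against the dendritic cell sum the spread was 1.40-fold, against T cells 1.64-fold, against endothelial genes 2.44-fold and against macrophages 2.50-fold. Against fibroblast genes it was 3.22-fold, against basal genes 9.65-fold and against luminal genes 11.8-fold. The part of each cell type in the class II levels was not tested.

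*Cd79a*, a signalling chain of the B cell receptor in a locus with *Arhgef1*, had 278, 507 and 408 CPM in *fat-1* and 266, 302 and 521 CPM in WT. It had the class II order within each genotype. The T cell genes *Lck*, a kinase, and *Cd2*, an adhesion receptor, reached 52.4 and 43.3 CPM in *fat-1* sample 2 and were at 25.6 and 19.5 CPM in *fat-1* sample 1. *Ly75*, an endocytic receptor on the dendritic cell list, had 29.9, 56.7 and 41.7 CPM in *fat-1* and 26.5, 29.5 and 54.6 CPM in WT, in the class II order. Among macrophage genes, *Mertk*, a receptor for dying cells, stayed between 12.9 and 20.2 CPM in all samples, and the locus of *Cd68*, which also holds the abundant *Eif4a1*, lay between 668 and 860 CPM. *Cldn4*, a luminal tight junction gene, went from 1155 CPM in *fat-1* sample 1 to 237 CPM in sample 2, and the basal genes *Krt5* and *Myh11* from 180 and 152 CPM to 33.8 and 53.8 CPM. The stromal genes *Dcn* and *Col1a2* were highest in other samples than class II in *fat-1*, at 1996 and 1277 CPM in sample 3. Both were also higher in *fat-1* sample 2 than in sample 1. In WT, *Dcn* was highest in sample 2, at 2080 CPM. *Col1a2* had 473, 1078 and 1186 CPM in the WT pools, which was the class II order. Of the endothelial genes, *Pecam1* had 59.7, 108 and 91.5 CPM in *fat-1* and 62.1, 79.0 and 119 CPM in WT. This was the class II order, which *Cdh5* did not have. *Cdh5* had 72.8 to 79.5 CPM and 79.9 to 101 CPM, without overlap between the genotypes (unadjusted *p* = 0.0541 in edgeR's quasi-likelihood test, adjusted 1.00). *Mertk* did not overlap either, with 12.9 to 13.5 CPM in *fat-1* and 13.8 to 20.2 CPM in WT. The genotypes did not overlap in 4.15% of all loci tested.

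**Figure D4:**
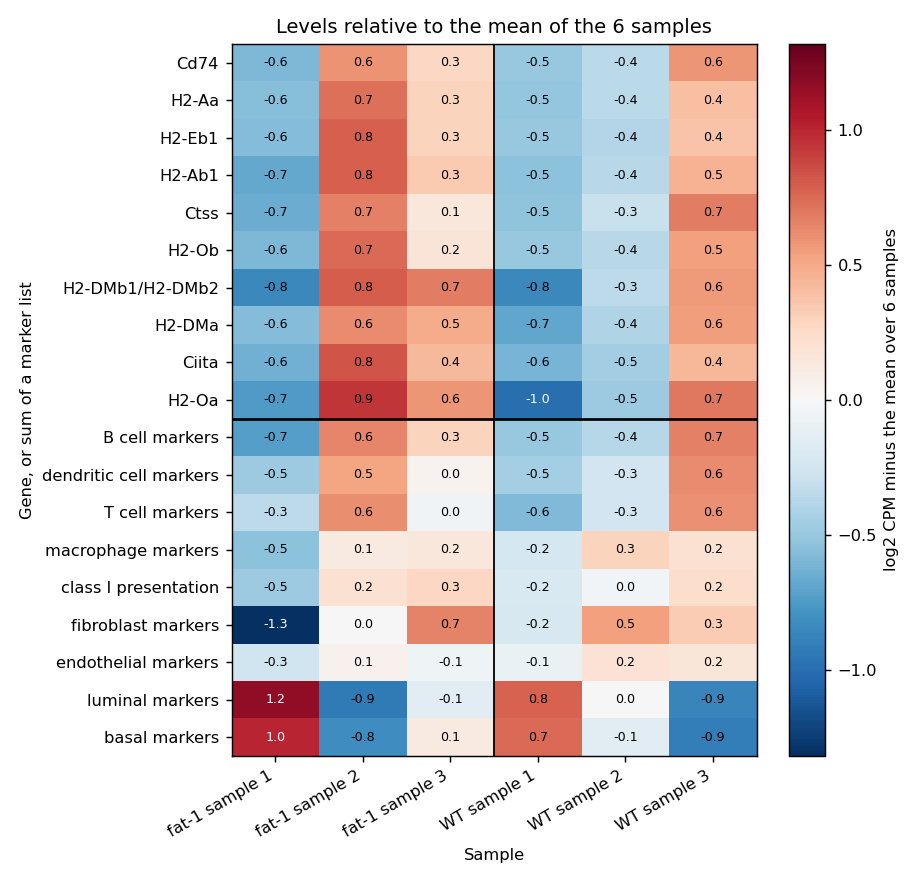
Log2 CPM of the 10 members (above the black line) and of the summed marker lists (below it), each minus its mean over the 6 samples, with red above and blue below the mean. The members are at −0.56 or lower in *fat-1* sample 1 and at 0.59 or higher in *fat-1* sample 2, in the order of the B cell sum, and the luminal and basal sums have the opposite colours in these samples.

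Over the 6 samples, the Pearson correlation of log2(CPM + 1) between *H2-Ab1* and the other 9 members was 0.969 to 0.999, a description of 6 points that share their libraries. High values were not confined to the members. Of the other 14007 loci with a symbol and a mean of at least 1 CPM, 4.23% reached 0.95 with *H2-Ab1*. This threshold lies below the value of every member, and the share at the members' own values was not counted. The loci most like *H2-Ab1* were *BC051226*, *H2-Aa* and that of the antibody segments *Ighv1-72* and *Ighv1-74*. For *H2-Aa* they were *BC051226*, *H2-Eb1* and *H2-Ab1*, and for *H2-Eb1* they were *H2-Aa*, *BC051226* and *Il18rap*, a subunit of the interleukin 18 receptor. For *Cd74* they were *Gng2*, the Src family kinase gene *Lyn* and the joint locus of *Cars* and *Nap1l4*, for *Ctss* they were *Tspan32*, *Mefv* and *Rcsd1*, and for *Ciita* they were *Il18rap*, the B cell receptor modulator *Cd72* and *Gtpbp2*. *H2-Ob* was most like *Acap1*, *AU020206* and the antibody segment *Ighv1-80*. *H2-Oa* was most like a joint locus that holds *Cmtr1*, *Rnf8* and *Tbc1d22b*, then *Kmo* and *H2-DMa*. *H2-DMa* was most like *Adgrg5*, the phosphatase gene *Ptpn6* and *9330175E14Rik*, and the DMb locus was most like that of *Gm12187* and *Gm12188*, then *Srpk3* and *Gm17334*. All of these had a correlation of 0.996 or more.

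The factors that bind class II promoters together with *Ciita* varied less than it did. *Rfxank* and *Rfxap*, subunits of the RFX complex, and the locus that holds *Rfx5* together with *Pi4kb* varied by 1.11-fold to 1.23-fold over the 6 samples. The NF-Y subunits *Nfya*, *Nfyb* and *Nfyc* varied by 1.22-fold to 1.23-fold and *Creb1* by 1.27-fold, against 2.76-fold for *Ciita*. *Irf8* and *Spi1*, transcription factors of blood cells, varied by 3.71-fold and 2.46-fold, and *Irf1*, an interferon response factor, by 3.69-fold. *Irf8* had 55.5, 200 and 184 CPM in the *fat-1* pools and 56.2, 70.5 and 206 CPM in the WT pools, which was the order of *Cd74* in *fat-1* and in WT. The receptor and kinase genes of interferon gamma signalling, *Ifngr1*, *Ifngr2*, *Jak1* and *Jak2*, varied by 1.31-fold to 1.53-fold.

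Other genes of the pathway varied by different amounts. The endosomal proteases *Lgmn*, *Ctsb*, *Ctsh*, *Ctsd* and *Ctsl*, the last 2 in loci with other genes, varied by 1.41-fold to 2.02-fold. *Ctsb* had 665, 759 and 991 CPM in *fat-1* and 949, 1116 and 742 CPM in WT, highest in WT sample 2, where every member was below its 6-sample mean. *Ctsd* had 1328, 657 and 811 CPM in *fat-1* and 1072, 974 and 667 CPM in WT, lowest in the samples where class II stood highest. The co-stimulators *Cd80*, *Cd86* and *Cd40*, which antigen-presenting cells show to T cells, varied by 2.41-fold to 3.20-fold, and *Marchf1*, a ubiquitin ligase that takes class II off the surface, by 2.29-fold. *Marchf8*, a ubiquitin ligase on the same list, varied by 1.77-fold. It had 68.7, 38.9 and 50.4 CPM in *fat-1* and 62.7, 56.3 and 41.7 CPM in WT, lowest in the samples where class II stood highest. *H2-Eb2*, a diverged relative of *H2-Eb1* that shared no 50-base window with it in the annotation, had 3.73, 11.0 and 7.22 CPM in *fat-1* and 3.45, 4.08 and 8.96 CPM in WT. The transcription factors, receptors, kinases, co-stimulators, *Lgmn*, *Ctsh*, *Ctsl*, *Marchf1* and *Marchf8* were named after their values had been seen. Of the 30 loci of partner and regulator genes that were tested, 0 had an unadjusted *p* at or under 0.05 in edgeR's quasi-likelihood test in either direction (the share of all loci was 1.14%), and their median log2 fold change was 0.041, with 17 above 0.

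**Figure D5:**
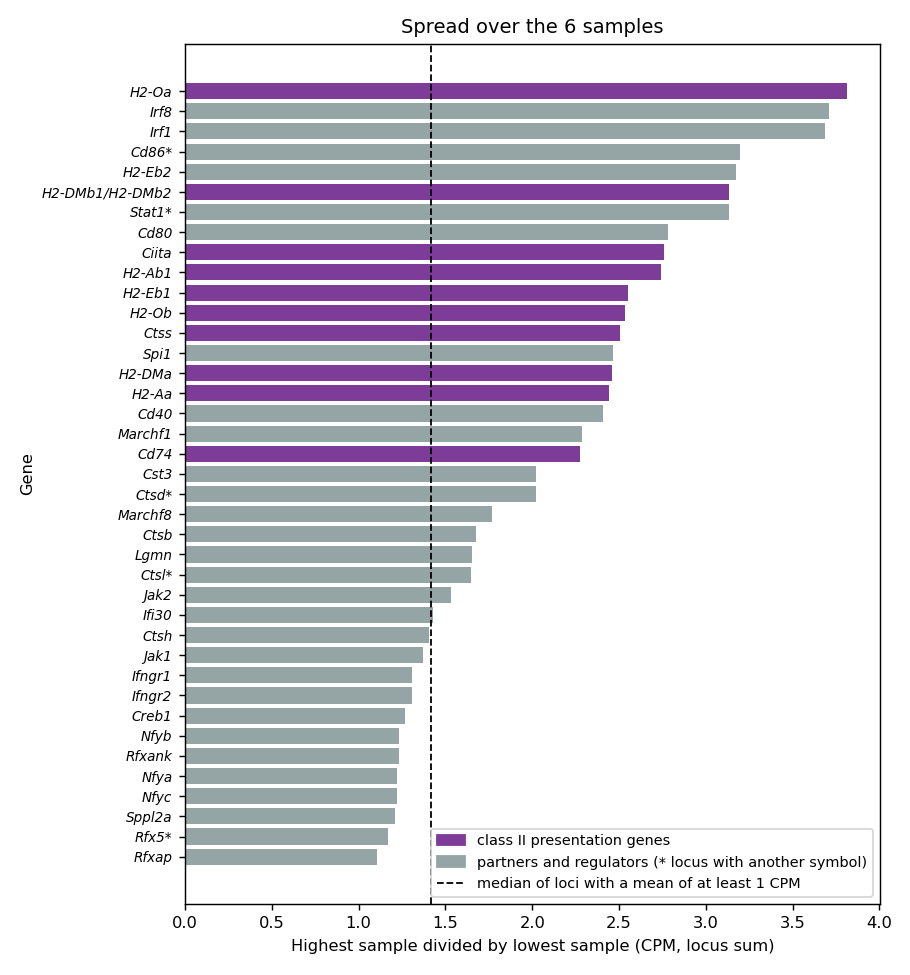
Highest sample divided by the lowest sample, in CPM of the locus sum, for the 10 members (purple) and the tested partners and regulators (grey), with a dashed line at the median of 1.42 over all loci with a mean of at least 1 CPM. *H2-Oa* is at the top with 3.81, *Cd74* is the lowest member with 2.28, and *Rfxap* is the lowest bar with 1.11.

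Of the 16 loci of MHC class I presentation, 6 had a spread of 2-fold or more over the samples, and their median spread was 1.77-fold against 2.54-fold for the 10 class II members. *B2m*, the light chain of class I, had 1536, 2778 and 2754 CPM and 2196, 2501 and 2706 CPM, a spread of 1.81-fold. The locus of *H2-D1*, which also held several *H2-Q* genes, varied by 1.63-fold. *Nlrc5*, the transactivator of class I, varied by 3.07-fold, with 85.6, 236 and 224 CPM in *fat-1* and 82.0, 125 and 251 CPM in WT, and the peptide transporter gene *Tap1* by 2.93-fold, both named after their values had been seen. Of the 16 class I loci, 0 had an unadjusted *p* at or under 0.05 in edgeR's quasi-likelihood test, and the median log2 fold change was 0.060. In each of the 8 cell type lists, 0 genes had an unadjusted *p* at or under 0.05. Over the genes whose locus held no other named gene, the median log2 fold changes were 0.14 for B cells, 0.038 for dendritic cells, 0.099 for T cells, −0.13 for macrophages, 0.019 for luminal cells, 0.060 for basal cells, −0.28 for fibroblasts and −0.24 for endothelial cells. With the joint loci included, the median turned to −0.14 for luminal cells and was −0.072 for macrophages.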

How the data were processed

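RNA of 6 pooled samples was measured by bulk RNA-Seq, and genotype and number came from the sample labels. The authors mapped paired reads of 100 bases with HISAT2 (GRCm38) and used StringTie for assembly and quantification. The estimated counts they deposited are whole numbers that were not normalized. The annotation, tool versions and use of strand are not given in the sources used here, so overlapping genes are uncertain. Rows with the same locus identifier were added together. Of 53912 loci, 24061 passed filterByExpr. They were tested with edgeR 4.0.16 (R 4.3.3; TMM, quasi-likelihood fit with legacy off, genotype only, Benjamini–Hochberg adjustment, threshold 0.05), and the rows likewise. Standard errors were derived from the F statistic of each fold change. At this depth, the 3 samples of a genotype limit the precision. Whether the pools of a genotype held separate litters or days is not stated, so *p*-values measure the spread between these pools. The fits were checked on simulated counts with a smaller spread between samples than in these data. That check does not cover the spread seen here.

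Ratios were tested by two-sided exact permutation. Samples with the same number were not treated as pairs. Alternatives were RLE size factors, no filter, DESeq2 1.42.0, edgeR's exact test, the older quasi-likelihood fit, a replicate block and leaving out each sample. The members and lists were chosen with earlier results of these data known. Genes named were all members, their near copies and partner, *Ptprc*, the 2 most abundant genes of each list (1 of them is not reported here), genes of a list with the smallest *p* where this was under 0.05, of which there were 0, and the 3 loci most like each member. Others are said to be named after their values were seen. Exon lengths and positions are from GENCODE for GRCm38. Promoters are from RefSeq, and *H2-Ab1*, *Cd74* and *Ciita* had no sequence to print. Plots used matplotlib 3.10.9.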

Additional observations from a re-analysis of the deposited data

How the results depend on the processing

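The count of members past the adjusted threshold was 0 under all 12 alternatives, for locus sums and for rows. At the unadjusted threshold it was 0 in 22 of these 24 counts. The exceptions were the *H2-DMa* row under the replicate block (log2 fold change 0.59, unadjusted *p* = 0.0497 in edgeR's quasi-likelihood test) and the *H2-DMb1* row without *fat-1* sample 1 (1.27, unadjusted *p* = 0.0483). The log2 fold changes of the 10 locus sums kept their sign in 114 of 120 alternative values, which ranged from −0.25 to 1.14. The 6 others came from leaving out 1 sample, with ranges of −0.25 to 0.57 for *Ctss*, −0.094 to 0.61 for *Cd74* and −0.13 to 0.66 for *H2-Ob*, and in the rows with the symbol of −0.24 to 0.58, −0.092 to 0.60 and −0.77 to 0.86. With all 6 samples, the *H2-Ob* row was at −0.0025 with RLE size factors and −0.0026 both without a filter and with DESeq2. The cause was not tested.

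Over all genes, DESeq2 called 8 loci and 93 rows and edgeR's exact test 6 loci and 32 rows, against 0 with the quasi-likelihood fit, which had 274 loci and 678 rows at an unadjusted *p* at or under 0.05. Leaving out 1 sample gave 0 to 1 loci (1 without WT sample 1) and 0 to 2 rows (2 without WT sample 1, 1 without *fat-1* sample 1 and 1 without *fat-1* sample 2). The difference of the log2 ratio ranged from −0.046 to 0.039 for *H2-Aa* to *H2-Ab1* when 1 sample was left out, and from −0.78 to 0.44 for *H2-Ob* to the *H2-DMb1* row, where 23 to 207 counts of *H2-DMb1* limit the precision. *H2-Oa* to *H2-DMa* went to −0.076 when the rows with the symbol alone were used. The signs of *Cd74* to *H2-Ab1* and *H2-Ab1* to *Ptprc* held in every alternative run, and the latter difference was 0.11 with the locus sum of *Ptprc*.

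The numbers of the samples are not stated to mark a shared litter or day. The deviations of samples with the same number correlated at 0.80, −0.16 and 0.13, and *fat-1* sample 2 correlated best with WT sample 3 (0.79), so the numbers were not used to pair the samples. With the replicate block, 0 loci and 0 rows passed the adjusted threshold and 376 loci and 784 rows the unadjusted one, and the log2 fold changes of the locus sums were 0.097 to 0.51.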
